A study of Mus musculus with 2 samples.

Results

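The genes described are the nuclear-encoded subunits of oxidative phosphorylation, the 85 rows (84 symbols) of 31053 in the gene table whose symbols begin with Ndufa, Ndufb, Ndufc, Ndufs, Ndufv, Uqcr, Cox4, Cox5, Cox6, Cox7, Cox8 or Atp5, or are Sdha, Sdhb, Sdhc or Sdhd. Pseudogene rows and the Ndufaf assembly factors were left out. The rule uses names only and no measured value. Of the 85 rows, 40 belong to complex I (10 in the N module that takes electrons from NADH, 5 in the Q module that passes them to ubiquinone, 21 in the membrane arm) or complex II (4), 8 to complex III, 20 to complex IV and 17 to ATP synthase. Beside them stand the 13 protein genes of the mitochondrial genome, whose symbols begin with mt-.

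The cells came from male C57/BL6 mice whose middle cerebral artery was occluded for 60 min on postnatal day 10 (MCAO), followed by 2 weeks of reperfusion. Lateral striatum was dissociated, and flow sorting took cells with A2B5 and/or O4 on their surface, antigens of oligodendrocyte precursors and of later stages in that lineage. The ipsilateral group is the occluded side and the contralateral group is the opposite side of the operated mice, so the control tissue had the same surgery and no group without surgery is used here. Each group is 1 droplet-based (10x Genomics) library that pools striata of 3 animals. With 1 library a side there is no replicate check: no test was made, and every interval covers counting error only.

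Oxidative phosphorylation couples the passage of electrons from NADH and succinate to oxygen with the making of ATP. Complexes I, III and IV pump protons out of the mitochondrial matrix, complex II feeds electrons from succinate without pumping, and ATP synthase lets the protons back in. All of these except complex II mix subunits of the nuclear and the mitochondrial genome, so their assembly draws on both. In the oligodendrocyte lineage, precursors that divide and differentiate are known to need mitochondrial ATP, while myelinating oligodendrocytes are known to use glycolysis strongly and to pass lactate to axons.

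Many promoters of these genes are known to carry sites for NRF1, GABP (an ETS factor), YY1 and Sp1, which raise respiratory genes together. Upstream sequence of 6 members is shown, picked by hand, some for their place in the comparisons that follow and others for matches to such sites. Ndufa3 and Ndufa4 lie at the ends of the mature-against-precursor comparison, Uqcrc1 and Ndufb3 recur between the libraries, and Ndufa11 and Sdhd carry NRF1 and ETS letters. The stretches are RefSeq sequence of build GRCm38.p6 (mm10), free of exons, on the gene's strand, with matches in capitals:
Ndufa3: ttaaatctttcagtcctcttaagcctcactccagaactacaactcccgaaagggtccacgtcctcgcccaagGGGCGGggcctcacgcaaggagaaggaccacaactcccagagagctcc
Ndufa4: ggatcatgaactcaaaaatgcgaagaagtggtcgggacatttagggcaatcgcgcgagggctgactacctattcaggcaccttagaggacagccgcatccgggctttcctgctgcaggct
Uqcrc1: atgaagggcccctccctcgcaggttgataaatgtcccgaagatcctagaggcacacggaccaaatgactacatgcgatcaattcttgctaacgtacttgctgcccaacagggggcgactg
Ndufb3: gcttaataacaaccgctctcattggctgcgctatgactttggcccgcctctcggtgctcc
Ndufa11: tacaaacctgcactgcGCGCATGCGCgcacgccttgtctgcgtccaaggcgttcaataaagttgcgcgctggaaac
Sdhd: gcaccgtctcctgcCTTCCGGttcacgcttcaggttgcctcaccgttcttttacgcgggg

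They lie at chr7:3617253-3617372 (Ndufa3, plus strand), chr6:11907498-11907617 (Ndufa4, minus strand), chr9:108936513-108936632 (Uqcrc1, plus strand), chr1:58586324-58586383 (Ndufb3, plus strand), chr17:56717686-56717761 (Ndufa11, plus strand) and chr9:50603850-50603909 (Sdhd, minus strand). The capitals mark the Sp1 letters in Ndufa3, the ETS letters in Sdhd and, in Ndufa11, the NRF1 letters, which match on both strands at overlapping places. Promoter windows (250 bases before to 50 after a start) were at hand for 67 of the 84 symbols, as 72 windows, and for 32851 windows of all genes. NRF1 letters (GCATGCGC on either strand) were in 10 of the 72 member windows, 13.9%, against 2.71% of all windows. ETS letters (CCGGAAG) were in 16 (22.2% against 8.86%), YY1 letters (AAGATGG) in 10 (13.9% against 6.34%) and Sp1 letters (GGGCGG) in 28 (38.9% against 35.7%). At least 1 of these was in 47 member windows, 65.3%, against 43.8% of all. The printed stretches of Ndufa4, Uqcrc1 and Ndufb3 hold none of these letters. Outside the printed stretches, the windows hold NRF1 letters for Uqcrc1, YY1 letters for Ndufa3 and Sp1 letters for Sdhd. A match is a match of letters, not a measured binding site.

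The contralateral file held 2066 barcodes with 36063045 UMIs and the ipsilateral file 2775 barcodes with 54788795 UMIs (unique molecular identifiers, counts of captured molecules); no barcode was shared. Cells with at least 500 genes and at most 15% mitochondrial UMIs numbered 1913 and 2505. Although the labels call the cells oligodendrocytes, marker genes separated them into OPC-like cells (oligodendrocyte precursors, 318 contralateral and 405 ipsilateral), committed oligodendrocyte-like (100 and 217) and mature oligodendrocyte-like cells (524 and 954), and into neuroblast-like (302 and 269), astrocyte-like (114 and 117), endothelial-like (182 and 127), mural-like (16 and 22) and microglia-like cells (9 and 21). A remaining 18.2% and 14.9% stayed unnamed. The precursor marker Pdgfra was at 1253 and 1118 CPM (the usual per-library scaling of counts, here to the non-mitochondrial UMIs of the class) in OPC-like and at 3.17 and 4.82 CPM in mature cells, in contralateral and ipsilateral order, which is kept throughout. The members themselves were left out of the genes used for clustering.

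Over all kept cells, the members took 2.39% of the contralateral and 2.27% of the ipsilateral non-mitochondrial UMIs, and the mitochondrial genes took 5.40% and 5.52% of all UMIs. In OPC-like cells the member share was 2.67% (95% interval 2.65 to 2.68) contralateral and 2.80% (2.78 to 2.81) ipsilateral. In committed cells it was 2.92% (2.90 to 2.94) and 2.79% (2.77 to 2.80). Mature oligodendrocyte-like cells had the lowest share of the 3 lineage classes, 2.07% (2.06 to 2.08) and 1.96% (1.95 to 1.96), although their gene-by-gene ratio over OPC-like cells turns positive once centred on all genes, as given further on. Cell by cell, the central quartiles of contralateral mature cells lay between 1.89% and 2.27%, under the median contralateral OPC-like cell at 2.60%. Neuroblast-like cells had 2.71% (2.70 to 2.73) and 2.57% (2.56 to 2.59), astrocyte-like cells 2.56% (2.53 to 2.59) and 2.40% (2.37 to 2.42), and endothelial-like cells 2.10% (2.08 to 2.12) and 2.04% (2.02 to 2.07). The few mural-like cells, contractile cells of vessel walls, had the highest contralateral share, 3.27% (3.18 to 3.36), and 2.68% (2.61 to 2.75) on the ipsilateral side. The markers of that class differed between the sides: the 8 mural markers summed to 41354 and 30359 CPM, the 6 fibroblast markers to 1137 and 6236 CPM and the 12 mature-oligodendrocyte markers to 3143 and 10752 CPM, with no gene of these lists at 0 in both libraries. Their part in the mural-like values here and further on was not tested. The microglia-like cells (1.51% and 2.28%) were too few and too shallow, with medians of 1958 and 1085 UMIs a cell, to be compared further.

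**Figure D1:**
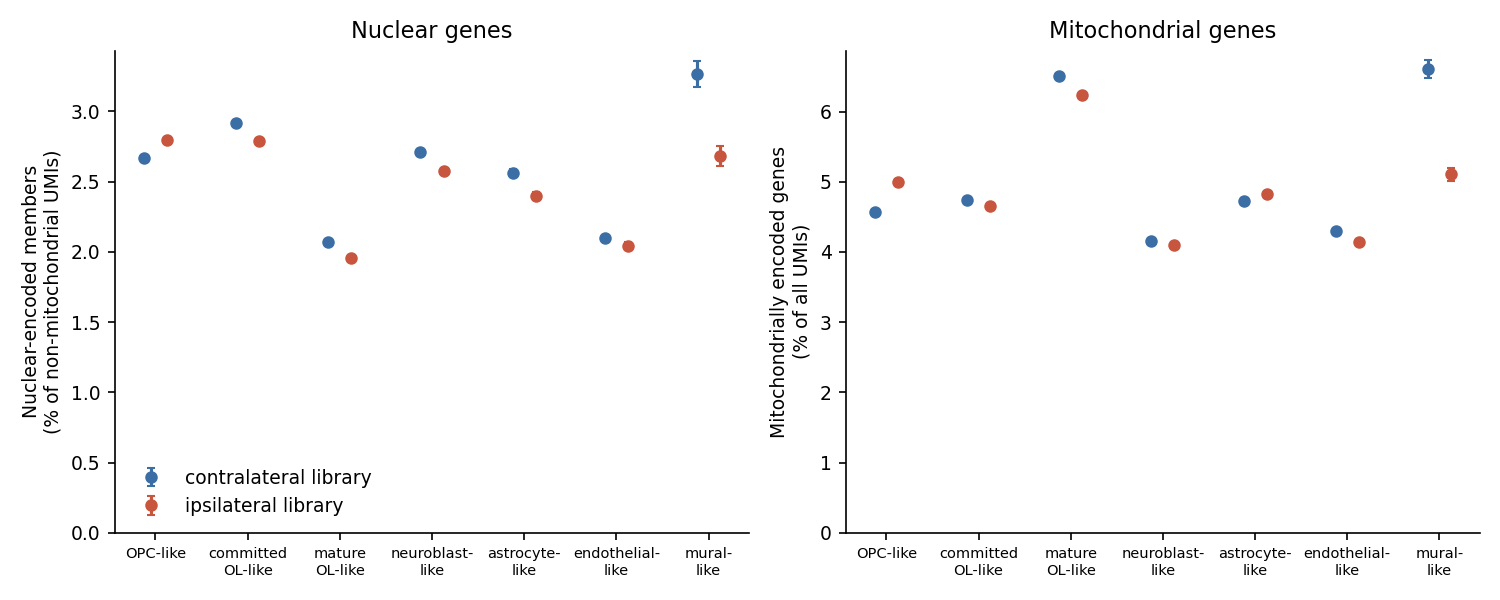
Member UMIs as a percentage of non-mitochondrial UMIs (left) and mitochondrial UMIs as a percentage of all UMIs (right) by class (OL, oligodendrocyte), with 1 point per library and bars for exact 95% binomial intervals. Mature cells sit lowest of the 3 lineage classes on the left (2.07% and 1.96%) and highest of them on the right (6.50% and 6.24%); centred on the median of all genes, the mature-over-OPC ratio of the members turns positive (0.18 and 0.0745 on the log2 scale).

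The mitochondrial genes took a larger share in mature cells than in the earlier classes of the lineage. They took 4.56% and 4.99% of all UMIs in OPC-like cells, 4.74% and 4.65% in committed cells and 6.50% and 6.24% in mature cells. Each member UMI was therefore accompanied by 1.79 and 1.88 mitochondrial UMIs in OPC-like cells, 1.70 and 1.75 in committed cells, and 3.36 and 3.40 in mature cells. The other classes lay between 1.60 (neuroblast-like, contralateral) and 2.16 (mural-like, contralateral) mitochondrial UMIs per member UMI. Mature cells are deep in these libraries, with medians of 27288.5 and 28380 UMIs a cell against 10149.5 and 12531 in OPC-like cells. A median mature cell held 534.5 and 525 member UMIs, against 251 and 311 in an OPC-like cell, 2.13-fold and 1.69-fold more. Its mitochondrial UMIs numbered 1761 and 1752.5 against 453.5 and 622, 3.88-fold and 2.82-fold more, while its total was 2.69-fold and 2.26-fold higher. The member count per cell was higher by less than the total and the mitochondrial count by more.

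Gene by gene, mature cells were set against OPC-like cells inside each library, with ratios taken on the log2 scale of CPM plus 5. The 77 members measured in both libraries had a contralateral median of -0.39 and an ipsilateral one of -0.48, with 67 and 71 of them below 0. Of all genes tested, 8212 of 10987 and 8768 of 11830 lay below 0. The median of all genes was lower than the members', -0.57 and -0.55, so that centred on it the members' medians turn positive, 0.18 and 0.0745. Of the 77, 46 were lower by at least 0.32 in both libraries, where 57.5% of all 10981 genes tested were, and 1 was higher, where 15.4% of all genes were. Without centring, the members' share of lower genes is thus close to that of all genes, and their share of higher genes is under it. Centred on the median of all genes, 5 were lower, where 30.4% of all genes were, and 13 higher, where 30.8% were, and both counts are under those shares. All 13 mitochondrially encoded genes lay above 0 in both libraries, with medians of 0.58 and 0.40. Among them mt-Co1, the catalytic subunit of complex IV, went from 5951 CPM in OPC-like to 9692 CPM in mature cells in the contralateral library and from 6983 to 9558 CPM in the ipsilateral one. The ratio of mt-Nd5, a proton-pumping subunit of complex I, was 0.41 and 0.0084. Of the other lists, the genes of supercomplexes and cristae had higher medians on this scale than the members, -0.12 and -0.04, and the antioxidant genes about the same, -0.48 and -0.49. Medians were lower, at -0.84 and -0.85 for the tricarboxylic acid cycle, -0.76 and -0.93 for glycolysis and lactate, -0.68 and -0.80 for the mitochondrial ribosome, and -0.90 and -1.36 for the cytosolic ribosome. The assembly factors (-0.71 and -0.64), mobile carriers and electron entry (-0.79 and -0.71), biogenesis regulators (-0.76 and -0.77) and mitochondrial carriers and pores (-0.62 and -0.58) were lower too. The 12 mature-oligodendrocyte markers alone summed to 126274 and 125569 CPM in mature cells, against 1989 and 2205 in OPC-like cells, and what such genes take of the total enters every ratio here.

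By complex, subunits of ATP synthase had the lowest medians among the members in mature over OPC-like cells, -0.52 and -0.62, with 13 of 16 lower in both libraries; with the all-gene medians of -0.57 and -0.55 subtracted they would lie near 0. The membrane arm of complex I stood at -0.39 and -0.48 (15 of 21), the Q module at -0.46 and -0.43 (3 of 5), and the N module at -0.19 and -0.38 (4 of 10). Complex II stood at -0.35 and -0.42 (2 of 4), complex III at -0.24 and -0.39 (3 of 8), and complex IV at -0.18 and -0.34 (6 of 13). At the level of single genes the 2 libraries gave the same sign for 71 of 77 members, with a median absolute difference of 0.13 between them. Ndufa4, a small subunit now placed in complex IV, had the lowest mean ratio, -1.32: it was at 841 and 880 CPM in OPC-like and 346 and 338 CPM in mature cells. Ndufa1, a membrane-arm subunit needed for complex I assembly, went from 239 to 111 CPM contralateral and from 257 to 103 CPM ipsilateral (mean -1.17). Cox7b (-1.07), a structural subunit of complex IV, and Ndufa12 (-1.05), an accessory subunit of the N module, were next. These 4 genes lay below the all-gene median in both libraries, so their direction holds under that centring as well.

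At the other end, Ndufa3, an accessory subunit of the membrane arm, was the only member higher by the fold in both libraries, though 1 of 13 when centred on all genes: 317 to 451 CPM contralateral and 369 to 463 CPM ipsilateral, ratios of 0.50 and 0.32. It missed the fold in 1 library or more when mitochondrial UMIs entered the denominator, when 20 CPM were added, without a cell filter, and with ribosomal protein genes out of the denominator. Cox4i1, the ubiquitous form of complex IV subunit 4, went from 805 to 1000 CPM contralateral (0.31) and from 879 to 923 CPM ipsilateral (0.07). Cox6b2, whose protein is best known from testis, differed in sign, though not when centred on all genes: 21.4 to 19.8 CPM contralateral (-0.09) and 15.9 to 24.7 CPM ipsilateral (0.51). Among the members the spread between genes was wider than between libraries, from -1.32 to 0.41 in mean ratio.

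**Figure D2:**
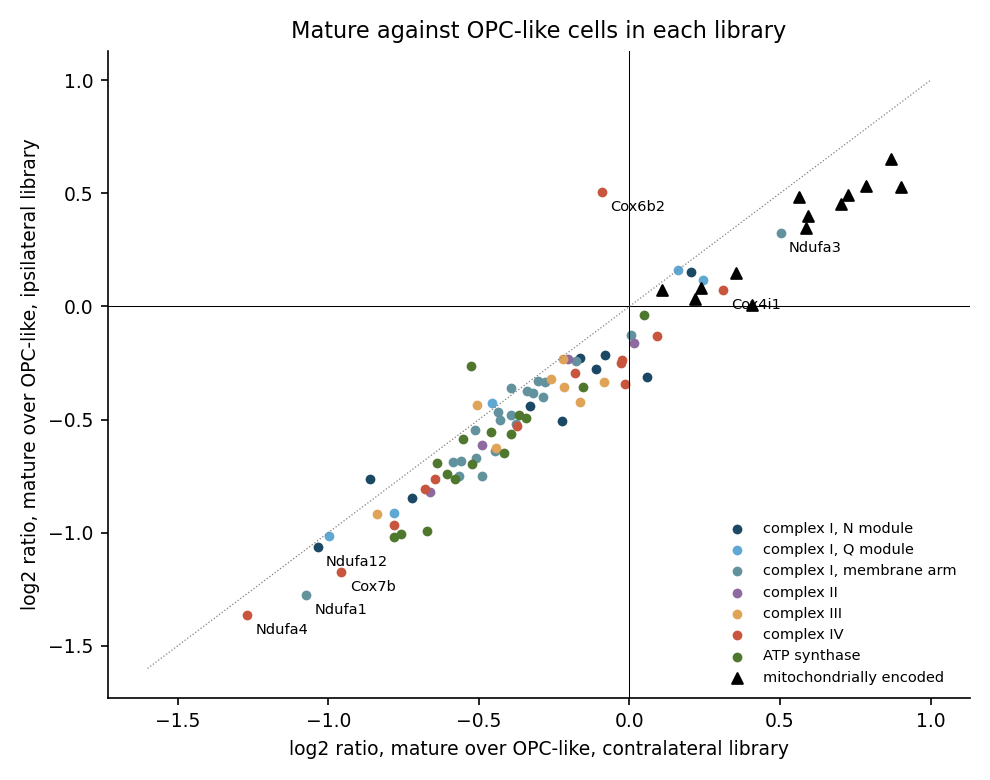
Log2 ratio of mature oligodendrocyte-like over OPC-like cells (CPM plus 5) in the contralateral (x) and ipsilateral (y) library, with 1 circle per member coloured by complex and triangles for the 13 mitochondrially encoded genes. Most circles lie below 0 (67 and 71 of 77). So do most of all genes tested (8212 of 10987 and 8768 of 11830), while all triangles lie above 0. With ratios centred on the median of all genes (-0.57 and -0.55) the median of the circles turns positive.

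Against OPC-like cells, the members' medians in the other classes were 0.05 and -0.03 in committed, -0.11 and -0.20 in neuroblast-like, -0.08 and -0.20 in astrocyte-like cells, and -0.45 and -0.54 in the endothelial-like class. The medians of all genes in those classes were -0.17 and -0.15, -0.24 and -0.20, -0.25 and -0.24, and -0.54 and -0.53. Centred on them, the members stood at 0.22 and 0.12 in committed, 0.13 and -0.0088 in neuroblast-like, 0.17 and 0.0388 in astrocyte-like cells, and 0.0927 and -0.0158 in the endothelial-like class.

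Between the sides, the members of mature oligodendrocyte-like cells were slightly lower in the ipsilateral library. Of 78 measured (at least 50 UMIs over both libraries), 65 lay below 0 and 13 above, with a median log2 ratio of -0.07 beside 0.0021 for all 10878 genes. Counts of sign between the sides, here and in the other classes, are taken at 0, and the split of all genes at 0 is not given beside them. As many genes lie above an all-gene median as below it, so that median shows only which side of 0 holds more of all genes. In OPC-like cells it lies below 0 (-0.05). No member passed 0.32 in either direction, where 2.67% of all genes were higher and 1.23% lower, so the shift is small for each gene. Its median lay between -0.09 and -0.06 under every alternative computed. Leaving out a mature cluster of 8 contralateral and 221 ipsilateral cells, led by Ifi27l2a, C4b, Klk6 and Serpina3n, was among these; that cluster's own member share was 2.13% and 2.02%. The membrane arm of complex I (median -0.10, 20 of 21 below 0), complex III (-0.10, 6 of 8) and complex IV (-0.09, 13 of 14) had the lowest medians. ATP synthase and the N module stood at -0.04 each (13 of 16 and 7 of 10 below 0), complex II at -0.04 (3 of 4) and the Q module at -0.01 (3 of 5). For the mitochondrially encoded genes the median was -0.02 (8 of 13 below 0). The cytosolic ribosome stood at -0.06, with 63 of 82 below 0.

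Among single members of mature cells, Ndufa9, an accessory subunit of complex I near the ubiquinone site, was at 74.9 CPM contralateral and 62.8 CPM ipsilateral, a log2 ratio of -0.24 (95% interval of the ratio without added CPM, -0.37 to -0.14). Ndufa2, of the N module, was at 296 and 253 CPM (-0.22, -0.28 to -0.17). Cox7b was at 180 and 156 CPM (-0.20, -0.28 to -0.13). These intervals exclude 0, and they count sampled molecules only. Cox8a, a small structural subunit of complex IV, was at 652 and 575 CPM (-0.18). Cox6b1, which sits at the interface of the complex IV dimer, was at 381 and 339 CPM (-0.17), and Ndufb3, of the membrane arm, at 177 and 158 CPM (-0.16). On the higher side, Cox6b2 was at 19.8 and 24.7 CPM (0.26, 0.12 to 0.53) and Uqcrc1, a core subunit of complex III, at 125 and 146 CPM (0.22, 0.14 to 0.31). The next members were close to no difference: Sdhb (0.07), Atp5k (0.07), Uqcrfs1, the iron-sulfur subunit of complex III (0.06), and Ndufv2, an iron-sulfur subunit of the N module (0.05).

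In OPC-like cells the direction was opposite, and it moved with the mix of precursor clusters. Of 77 members, 53 lay above 0 and 24 below, with a median of 0.05 beside -0.05 for all 10986 genes. Those past 0.32 were 1 higher (Ndufs1) and 1 lower (Cox6b2), where 7.59% and 11.3% of all genes were. ATP synthase (0.09, 13 of 16 above 0), complex II (0.08, 3 of 4) and complex IV (0.07, 11 of 13) had the highest medians, and the membrane arm of complex I stood at -0.0024 (10 of 21 above 0). For the mitochondrially encoded genes the median was 0.16 (12 of 13 above 0), and the cytosolic ribosome 0.44, with 79 of 82 above 0. OPC-like cells fell into 2 clusters. The cluster led by Ccnd1 and Gap43 held 26.4% of the contralateral and 52.6% of the ipsilateral precursors, and its member share was 3.01% (2.98 to 3.05) and 3.00% (2.98 to 3.02). The cluster led by Cspg5 and Cdo1 held the rest, at 2.52% (2.50 to 2.54) and 2.48% (2.46 to 2.50). Within each cluster the intervals of the sides overlapped. With an equal mix of both clusters on the 2 sides, the members' median was -0.01, close to that of all genes, -0.02. The mitochondrially encoded median was then 0.08 and the cytosolic ribosomal median 0.12. Markers of cycling cells summed to 285 and 541 CPM in the class.

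Ndufs1, the largest core subunit of the N module, was at 58.4 CPM (191 UMIs) and 79.2 CPM (437 UMIs) in OPC-like cells, a log2 ratio of 0.41 (0.19 to 0.69). Atp5g2, which with Atp5g1 and Atp5g3 encodes the membrane ring subunit of ATP synthase, was at 615 and 730 CPM (0.25, 0.17 to 0.33). Atp5k (0.24), Cox7c (0.24), Uqcrc1 (0.23) and Atp5a1, the alpha subunit of the catalytic head of ATP synthase (0.23), followed. All 6 kept their sign under every alternative, and Atp5g2 ranged from 0.07 to 0.30. Of the transcript of Atp5g2, 40.2% of 31-base words also occur in other genes, and of Cox7c 24.6%, so their counts could be shared with those copies. On the lower side, Cox6b2 was at 21.4 and 15.9 CPM (-0.33, -0.89 to 0.05) and Atp5s, an ATP synthase coupling factor, at 22.3 and 17.8 CPM (-0.26, -0.78 to 0.13). Their intervals include 0. Ndufb3 (-0.13), Atp5g3 (-0.10), Ndufa13 (-0.10) and Ndufb2 (-0.09) were next, and of these 4 only the interval of Ndufa13 (-0.19 to -0.0058) lay below 0.

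**Figure D3:**
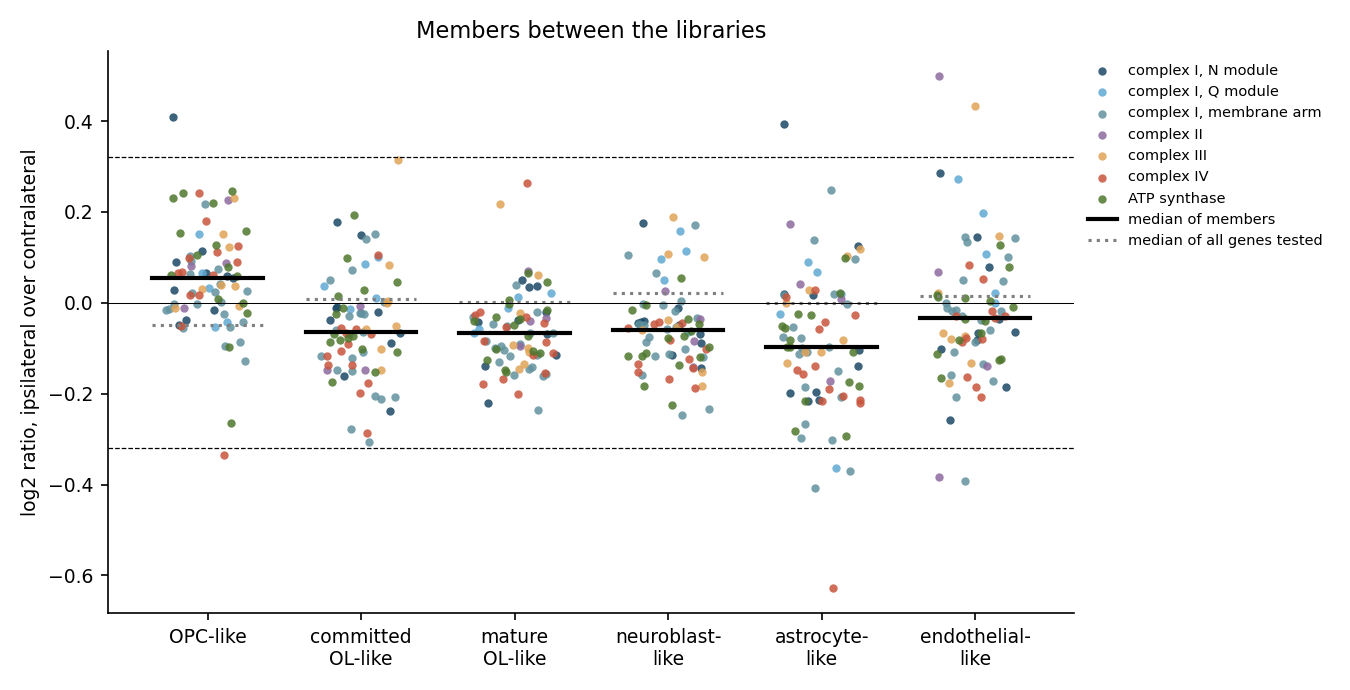
Log2 ratio, ipsilateral over contralateral (CPM plus 5), of each measured member in 6 classes (OL, oligodendrocyte), coloured by complex, with a solid line for the median of the members and a dotted line for the median of all genes tested. The members' median lies above that of all genes in OPC-like cells (0.05 against -0.05) and below it in the other 5 classes. With the same mix of precursor clusters on both sides, the OPC-like medians were close (-0.01 against -0.02).

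Committed oligodendrocyte-like cells had 56 of 77 members below 0 and 21 above, a median of -0.06 beside 0.008 for all 9432 genes. None passed 0.32, where 10.1% of all genes were higher and 6.98% lower; 3 were lower once each class had an equal cluster mix in the 2 libraries. All 4 subunits of complex II (median -0.11) and 12 of 13 of complex IV (-0.11) lay below 0, while 4 of 5 of the Q module lay above it (0.04). Ndufb3 was at 231 and 186 CPM (-0.31, -0.48 to -0.15) and Cox6b2 at 31.4 and 24.8 CPM (-0.29, -0.79 to 0.12). Uqcrc1 was at 119 and 149 CPM (0.32, 0.11 to 0.54), just short of the fold, and Atp5a1 at 434 and 497 CPM (0.19, 0.08 to 0.31).

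Neuroblast-like cells had 62 of 76 members below 0 (median -0.06 beside 0.02), none past 0.32 in either direction, where 8.3% of all 9755 genes were higher and 4.41% lower; 3 were lower after each cell was thinned to 6815 UMIs. All 12 measured complex IV genes lay below 0 (-0.11) and 15 of 16 of ATP synthase (-0.09), against 1 of 5 of the Q module (0.10). Ndufb3 was at 207 and 174 CPM (-0.25), Ndufab1, the acyl carrier protein of the complex, at 251 and 213 CPM (-0.23), Uqcrc1 at 139 and 160 CPM (0.19) and Ndufv1, the NADH-binding subunit, at 106 and 120 CPM (0.18). Markers of mature oligodendrocytes summed to 1302 and 4052 CPM in this class, and their part in its ratios was not tested.

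Astrocyte-like cells had 55 of 77 members below 0 (median -0.10 beside -0.0013). Past 0.32, 1 was higher and 4 lower, where 13.1% and 11.7% of all 6983 genes were. The 4 were Cox4i2 (32.6 and 19.3 CPM, -0.63, -1.58 to 0.04), Ndufb6 (151 and 113 CPM, -0.41, -0.76 to -0.09), Ndufc1 (338 and 260 CPM, -0.37) and Ndufs8 (137 and 105 CPM, -0.36); the last pair is named because it completes the count. Ndufs1 was the higher one, 52.3 and 70.3 CPM (0.39, -0.07 to 0.93), and Ndufa1 followed at 129 and 155 CPM (0.25). These counts rest on which cells bear the name. In 3 alternatives the larger astrocyte-like cluster lost it in 1 library or both, which left 29 and 25 cells under the stricter filter, 30 and 28 without doublet calls, and 29 and 102 with each library clustered alone. Between 0 and 11 members were then higher over all alternatives and between 1 and 34 lower; Cox4i2 and Ndufs1 changed sign. In the cluster that kept the name throughout (30 and 28 cells), the member share was 2.75% and 2.63%.

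Endothelial-like cells had 48 of 75 members below 0 (median -0.03 beside 0.02 for 6503 genes). Past 0.32, 2 were higher and 2 lower, where 13.4% and 9.75% of all genes were. Sdhb, the iron-sulfur subunit of complex II, was at 92.7 and 133 CPM (0.50, 0.18 to 0.86) and Uqcrc1 at 99.9 and 137 CPM (0.43, 0.12 to 0.78). Ndufb3 was at 184 and 139 CPM (-0.39, -0.69 to -0.12) and Sdhd, a membrane anchor of complex II, at 89.4 and 67.4 CPM (-0.38, -0.83 to 0.0046). Blood markers summed to 6407 CPM contralateral and 0.88 CPM ipsilateral in this class, with 5 of the 7 genes at 0 in both libraries, and mature oligodendrocyte markers to 1657 and 4208 CPM; their part in the ratios was not tested.

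Some members kept 1 direction in all 6 of these classes, which share the 2 libraries and so are not independent. Of the 75 members measured in each of the 6, 5 lay above 0 throughout and 11 below, where 6.62% and 5.53% of the 4987 genes so measured did. The 5 are close to the share of all genes. Both lists were drawn up after the values were seen. Among the 5 were Uqcrc1 (0.12 to 0.43), Ndufa3 (0.02 to 0.22), and the complex I core subunits Ndufs3 (0.01 to 0.11) and Ndufv1 (0.04 to 0.29). The 11 were Ndufb3 (-0.39 to -0.13), Cox8a (-0.22 to -0.05), Ndufa13 (-0.16 to -0.09), Ndufab1 (-0.23 to -0.01), Ndufb2 (-0.16 to -0.03), Ndufb5, Ndufb7, Ndufb10, Ndufc2, Atp5g3 (-0.28 to -0.0094) and Atp5h (-0.12 to -0.02). The interval excluded 0 in 5 of 6 classes for Uqcrc1, in 5 for Ndufb3 and in 4 for Cox8a. Of the others none did so in more than 3 classes. These intervals rest on the same counts that picked the members, and no such tally was made for all genes, so they add no separate support. Uqcrc1 and Ndufb3 share 0.39% and 13.5% of their words with other genes.

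The catalytic and anchor subunits of complex II, the complex with no mitochondrially encoded part, differed in their pattern over the classes. Sdha, the flavoprotein that oxidises succinate, was at 135 and 134 CPM in OPC-like, 121 and 109 in committed, 116 and 113 in mature, 123 and 111 in neuroblast-like, 181 and 182 in astrocyte-like and 121 and 127 in endothelial-like cells. Sdhb was at 210 and 247 CPM in OPC-like, 304 and 302 in committed, 131 and 138 in mature, 185 and 188 in neuroblast-like and 189 and 195 in astrocyte-like cells; the OPC-like ratio was 0.23 (0.10 to 0.37). Sdhc, a membrane anchor, ranged from 66.5 to 104 CPM over these 6 classes and Sdhd from 65.3 to 102 CPM. Of these 6 classes, committed cells had the highest Sdhb and astrocyte-like cells the highest Sdha in both libraries. In mural-like cells Sdha was at 219 CPM (31 UMIs) and 91.9 CPM (18 UMIs).

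Some isoforms differed between classes by large factors. Ndufa4l2, a paralog of Ndufa4 known as a hypoxia-responsive gene and a pericyte marker, was at 1879 and 898 CPM in mural-like cells (266 UMIs in 16 cells and 176 in 22). All 16 contralateral and 18 of 22 ipsilateral mural-like cells had a UMI, and the richest cell held 16.2% and 14.2% of them. In OPC-like cells it had 5 and 6 UMIs, in 1.26% and 1.48% of cells, and in endothelial-like cells 4 and 5 UMIs, in 1.10% and 3.15% of cells, at median depths close to the mural ones (10149.5 and 12531, 8272 and 8607, and 8820 and 9859 UMIs a cell). The mural level was 1229-fold and 826-fold that of OPC-like cells and 719-fold and 205-fold that of endothelial-like cells. Committed cells had 0 UMIs, so that mural-like cells were at least 1257-fold and 1483-fold higher, with 3 UMIs taken as the floor. Ndufa4 itself was lowest there, at 127 and 219 CPM, beside 346 and 338 in mature and 841 and 880 in OPC-like cells. Ndufa4l2 is also among the 10 leading genes of the mural-like cluster, which carries fibroblast markers such as Dcn too.

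Cox4i2, the oxygen-responsive form of complex IV subunit 4, was likewise highest in mural-like cells. It was at 911 and 490 CPM there (129 and 96 UMIs, in 14 of 16 and 13 of 22 cells), 28.0-fold and 25.3-fold the level of astrocyte-like cells and 233-fold and 80.0-fold that of endothelial-like cells. OPC-like cells had 0 UMIs in 318 and 405 cells, which puts the mural level at least 993-fold and 902-fold higher. Astrocyte-like cells had 38 and 22 UMIs in 17 of 114 and 17 of 117 cells (14.9% and 14.5%), while endothelial-like cells had UMIs in 2.75% and 2.36%. Between the sides, mural-like Cox4i2 had a log2 ratio of -0.89 (-1.29 to -0.50) and Ndufa4l2 -1.06 (-1.35 to -0.78), in 16 and 22 cells. In the same cells Rgs5, a pericyte marker, went from 14267 to 6971 CPM and Pdgfra, a marker of fibroblasts as well as of precursors, from 28.3 to 240 CPM, and their part in these ratios was not tested. Its partner form Cox4i1 varied little, from 726 to 1158 CPM over the 7 classes.

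**Figure D4:**
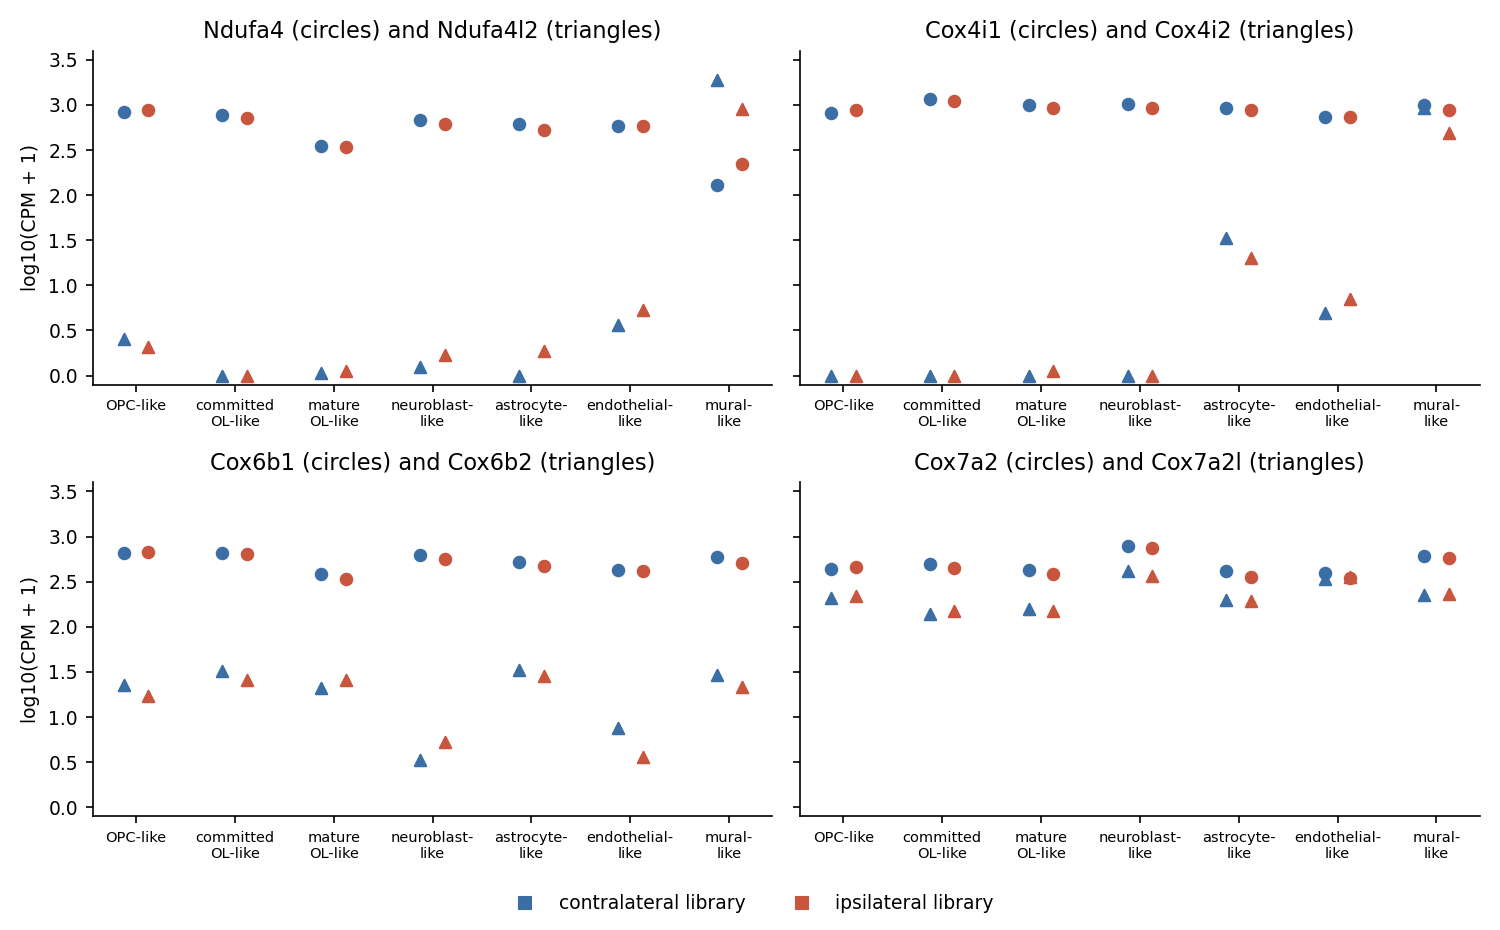
Levels of 4 isoform pairs as log10(CPM + 1) in 7 classes (OL, oligodendrocyte), with circles for the first and triangles for the second gene of each title and 1 colour per library. Ndufa4l2 and Cox4i2 reach 1879 and 911 CPM in contralateral mural-like cells and lie at or near 0 in the oligodendrocyte lineage.

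Cox6b2 had another distribution. It was at 21.4 and 15.9 CPM in OPC-like, 31.4 and 24.8 in committed, 19.8 and 24.7 in mature and 32.6 and 27.2 in astrocyte-like cells, against 2.31 and 4.27 in neuroblast-like and 6.53 and 2.63 in endothelial-like cells. Of the 10 contralateral endothelial UMIs, 8 lay in 1 cell. A UMI was found in 17.0% and 18.5% of OPC-like cells and in 1.65% and 2.36% of endothelial-like cells. Cox6b1 was at 659 and 667 CPM in OPC-like and 381 and 339 CPM in mature cells. Cox7a2l, known for joining complexes III and IV into supercomplexes and for a shortened protein in this mouse background, was highest in neuroblast-like (411 and 360 CPM) and endothelial-like cells (338 and 351 CPM) of the 7 classes, and at 157 and 148 CPM in mature cells. Cox7a2 was at 437 and 456 CPM in OPC-like and 780 and 737 CPM in neuroblast-like cells. The muscle-type forms had few counts: Cox7a1 had 73 and 85 UMIs in all kept cells, Cox6a2 20 and 24, Cox8b 0 and 1, and Cox7b2, a form of Cox7b, 7 and 3. Cox8c and the extra Atp5o row (ENSMUSG00000116933), 94.0% of whose words occur in another gene, had 0. Of the 3 ring-subunit genes, Atp5g1 was at 321 and 351 CPM in OPC-like and 243 and 236 CPM in mature cells, Atp5g2 at 615 and 730 and at 356 and 357 CPM, and Atp5g3 at 263 and 245 and at 167 and 150 CPM. Cox6a1, the form outside muscle, was at 375 and 426 CPM in OPC-like and 401 and 388 CPM in mature cells.

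The other genes around respiration had other medians than the members between the sides. The glycolysis and lactate list had medians of 0.15 in OPC-like (11 of 18 above 0), 0.16 in committed (17 of 18), 0.09 in mature (17 of 19), 0.18 in neuroblast-like (14 of 15), 0.06 in the astrocyte-like class and 0.08 (13 of 15) in the endothelial-like class. The tricarboxylic acid cycle stood at 0.06, 0.07, 0.03, 0.09, 0.03 and 0.06 in the same order. Ldha, which makes lactate, was at 219 and 286 CPM in OPC-like cells (0.38, 0.26 to 0.51) and Pkm, pyruvate kinase, at 309 and 384 CPM (0.31, 0.21 to 0.42). In mature cells Slc16a1, a lactate transporter, was at 76.0 and 62.2 CPM (-0.27, -0.40 to -0.18). It was 1 of only 2 genes below 0 among the 19 of the glycolysis and lactate list. Among the 17 above 0 were Hk1 (222 and 517 UMIs, 0.26, 0.10 to 0.56) and, on few counts, Eno2 (35 and 146 UMIs, 0.50). Mpc1, part of the mitochondrial pyruvate carrier, was at 657 and 565 CPM in mature cells (-0.22, -0.26 to -0.18). Mdh2, malate dehydrogenase of the cycle, was higher in OPC-like (221 and 268 CPM, 0.28) and mature cells (152 and 169 CPM, 0.15). The mitochondrial ribosome stood between -0.04 and 0.02 over the 6 classes, and the regulators of mitochondrial biogenesis at -0.13 in OPC-like and -0.02 in mature cells. Of the mitochondrially encoded genes in mature cells, mt-Nd5 (372 and 306 CPM, -0.27) and mt-Atp6 (13195 and 11436 CPM, -0.21) were lowest and mt-Atp8 was highest (98.7 and 119 CPM, 0.26). In OPC-like cells mt-Atp8 was at 50.5 and 81.2 CPM (0.64) and mt-Nd4 at 3513 and 4266 CPM (0.28).

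At the finest level, 20 clusters had at least 10 cells in each library. The member share was lower on the ipsilateral side in 18 of them and higher in 2, and the intervals lay apart in 16 and 1 of these. That 1 was the unnamed cluster 2, at 2.16% (2.15 to 2.18) contralateral and 2.22% (2.21 to 2.23) ipsilateral. Its leading genes include Gpr17, Tnr, Itpr2, Tcf7l2 and Bmp4, which are among the listed markers of the oligodendrocyte lineage. The ratio of the shares, ipsilateral over contralateral, ran from 0.82 in the mural-like cluster, whose mural markers were also lower and fibroblast markers higher on the ipsilateral side, to 1.04 in an unnamed cluster. All 5 mature clusters were lower on the ipsilateral side, among them the 1 with 8 contralateral cells, which is outside the 20, while both precursor clusters had overlapping intervals. A lower ipsilateral share was not particular to the members. The cytosolic ribosome share was also lower on that side in most of the 20 clusters and in all 5 mature ones. It was higher in the others, among them both precursor clusters and the mural-like cluster. Clusters are not replicates: all of them come from the same pair of libraries.

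**Figure D5:**
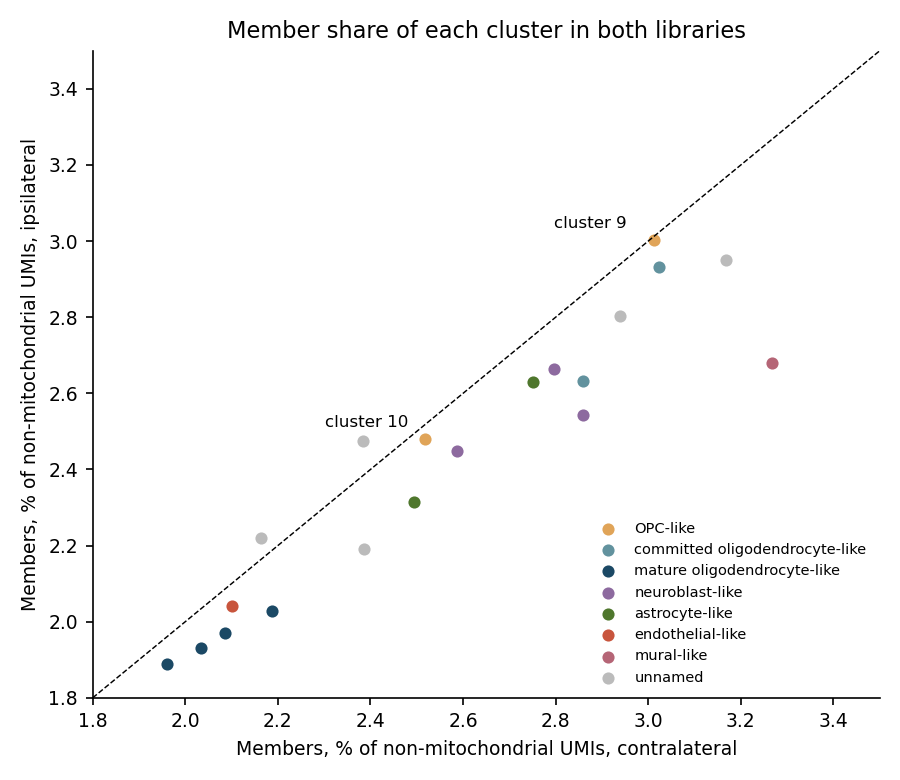
Member share of non-mitochondrial UMIs in the contralateral (x) and ipsilateral (y) library for the 20 clusters with at least 10 cells in each, coloured by class, with a dashed line of equal shares and the precursor clusters led by Ccnd1 (9) and Cspg5 (10) marked. Below the line lie 18 clusters, with the lower share on the ipsilateral side.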

How the data were processed

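Values are UMI counts per gene and barcode in the matrices the authors deposited, 1 per library. Per the submitters' processing notes, Cell Ranger 3.1.0 and mm10 were used; how reads were aligned, and to which annotation, is not given in the sources used here. Members and lists were chosen with earlier results of these data known.

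Barcodes with at least 500 genes and at most 15% mitochondrial UMIs were kept; doublet calls (Scrublet, 14 and 101 barcodes) stayed in. Both libraries were scaled to 10000 counts a cell and clustered together without the members (scanpy 1.11.5, 2000 variable genes, 30 principal components, 15 neighbours, Leiden resolution 1 with igraph 0.11.9). Clusters were named from listed markers, "-like" because names rest on RNA alone, with thresholds set after the data were seen. A name needed a score of at least 0.3 and 3 markers. A second class at 0.6 of the best score left a cluster unnamed, unless its 10 leading genes held at least 2 more markers of the best-supported class than of any other; this exception names 1 committed cluster (15, second class OPC), the microglia-like cluster (19, blood or lymphoid) and the mural-like cluster (21, fibroblast, at 1.0 for both). The larger astrocyte-like cluster (13) scored 0.67 for ependymal and 0.33 for astrocyte markers, but ependymal markers were too few to count; in the class, astrocyte markers sum to 13949 and 15910 CPM and ependymal ones to 242 and 174. A cluster also stayed unnamed if another class had more markers among its 10 leading genes than the best-scoring class. The same held if none were of that class and its median UMIs were under the library median divided by 3. Clusters 2, 3, 6, 11, 12 and 14 stayed unnamed. Cluster 2 (68 contralateral and 95 ipsilateral cells) scored best for mature oligodendrocytes, 0.53, but its leading genes included Gpr17, Itpr2, Tcf7l2 and Bmp4, listed for committed cells.

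Each gene's UMIs in a class were added up for each library and scaled to its non-mitochondrial UMIs (CPM). Log2 ratios were taken after adding 5 CPM, which draws low genes toward 0, on genes with at least 50 summed UMIs. "Higher" and "lower" counts use a log2 ratio of 0.32. Intervals are exact 95% Poisson and Clopper-Pearson intervals without added CPM (scipy 1.17.1). Members named are the 6 largest and 6 smallest ratios in OPC-like and mature cells, 2 each way elsewhere, 4 each way of mature over OPC-like, the complex II subunits and the isoform sets; pathway genes are up to 3 a list. A further gene of this rule is not reported here. The log2 ratio and its interval were tested on Poisson counts simulated from the OPC-like sums, the counting model that the interval assumes. Clustering, naming and differences between cells or libraries were not simulated. Shared 31-base words were counted in GENCODE M21 transcripts. Alternatives changed the scaling, added CPM, minimum, fold, cell filter, doublets, resolution, joint clustering, microglial UMIs, cluster mix and depth; leaving out cluster 22 and removing ribosomal protein genes from the denominator were chosen after seeing the data.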

Additional observations from a re-analysis of the deposited data

How the results depend on the processing

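No paired analysis was possible because each group is 1 library. Of 402 alternative values of 24 medians, 375 kept the sign of the value reported and 27 did not. The yardstick for a moved median was the counting interval of a typical single gene, which is wider than many of the medians, so most sign changes near 0 stay inside it. Past it lay 14 values, 12 of them from centring on the median of all genes, which lies below 0 in every class set against OPC-like cells; for the other changes the cause was not tested. The members' medians over OPC-like cells became 0.22 contralateral and 0.12 ipsilateral in committed cells, 0.18 and 0.0745 in mature cells (both reversed), 0.13 and -0.0088 in neuroblast-like, 0.17 and 0.0388 in astrocyte-like, and 0.0927 (reversed) and -0.0158 in endothelial-like cells; the mitochondrially encoded medians in mature cells became 1.16 and 0.95. Removing ribosomal protein genes from the denominator moved the ipsilateral mature medians to -0.58 for members and 0.30 for mitochondrially encoded genes. Between the sides, every alternative kept the sign of the members' median in committed (-0.14 to -0.03), mature (-0.09 to -0.06), neuroblast-like (-0.09 to -0.04), astrocyte-like (-0.26 to -0.06) and endothelial-like cells (-0.06 to -0.03), and 15 of 17 in OPC-like cells (-0.01 to 0.10). The neuroblast-like class did not hold the same cells throughout. It had 302 and 269 cells as reported, 572 and 522 at Leiden resolution 0.5, and 240 and 489 with each library clustered alone. The mitochondrially encoded medians between the sides changed sign in 8 of 17 alternatives in neuroblast-like, 3 of 17 in astrocyte-like and 2 of 17 in committed cells. In astrocyte-like cells Cox4i2 reversed to 0.23 under the stricter cell filter and 0.19 without doublet calls, and Ndufs1 to -0.26 with each library clustered alone; there 34 members were lower instead of 4, and 11 instead of 1 were higher under the stricter filter (ranges over alternatives, 1 to 34 and 0 to 11). Of mature over OPC-like cells, 46 members lower in both libraries became 5 when centred and 19 at a fold of 0.58, and 1 higher became 13 when centred. Other counts that moved went from 0 to at most 3, from 1 to 0 or 2, or from 2 to 0 or 4. Depth limits the ratios of genes near the minimum of 50 UMIs and of mural-like cells (16 and 22 cells).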
